A study of Mus musculus with 20 samples.

Results

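Mouse liver and kidney take up glucose and fructose with different members of the same enzyme families. Transcripts of 8 such genes, of the 57010 genes in the count table, were followed here: the transporters Slc2a2 and Slc2a5, the kinases Hk1 and Khk, the phosphofructokinase genes Pfkl and Pfkfb1, and the pyruvate kinase genes Pklr and Pkm. They were chosen by name, with earlier results of these data known, and each symbol matched 1 Ensembl identifier. RNA-seq was done on both organs of male UM-HET3 mice, a genetically heterogeneous stock, that were 12 months old. The 7c group received repsox, tranylcypromine, DZNep, CHIR99021, forskolin and TTNPB at 0.1 mg/kg/day each, with valproate at 1 mg/kg/day. The vehicle group received the DMSO and PEG300 solvent alone. Both groups carried a subcutaneous osmotic minipump for 28 days. Each tissue gave 6 libraries from 7c mice and 4 from vehicle mice. Stock mice differ in genotype, so the spread within a group holds genetic differences too.

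Glucose enters a hepatocyte through GLUT2, the product of Slc2a2, and hexokinases such as that of Hk1 phosphorylate glucose in most other cells. Fructose enters through GLUT5, the product of Slc2a5, or through GLUT2, and ketohexokinase (Khk) and triokinase (Tkfc) help to carry it past the phosphofructokinase step. The enzymes encoded by Pfkfb1 to Pfkfb4 make and degrade fructose 2,6-bisphosphate, the activator of phosphofructokinase. Pyruvate kinase closes glycolysis with a liver and red cell gene, Pklr, and a widely used gene, Pkm. In the kidney, the proximal tubule reabsorbs glucose and fructose and makes glucose, and the more distal segments consume it.

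The liver form of Pklr is known for its response to glucose through the carbohydrate response element, to which the factors encoded by Mlxipl and Mlx bind. The 250 bases before the annotated start of the canonical transcript, Pklr-202 (GRCm39 chr3:89043629-89043878, + strand), are shown because they hold a pair of hexamers of the kind such elements are made of. The same length of sequence before the start of Slc2a2 (chr3:28751801-28752050, + strand) is shown beside it because the levels of both genes moved together across livers, as described further on. Capitals mark 2 E-box-like hexamers, CACGNG and CNCGTG, with the 5 bases between them.
Pklr-202: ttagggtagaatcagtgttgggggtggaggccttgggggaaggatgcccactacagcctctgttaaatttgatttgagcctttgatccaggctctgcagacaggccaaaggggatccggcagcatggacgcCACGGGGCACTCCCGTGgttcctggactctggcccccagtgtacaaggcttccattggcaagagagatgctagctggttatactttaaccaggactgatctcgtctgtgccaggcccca
Slc2a2: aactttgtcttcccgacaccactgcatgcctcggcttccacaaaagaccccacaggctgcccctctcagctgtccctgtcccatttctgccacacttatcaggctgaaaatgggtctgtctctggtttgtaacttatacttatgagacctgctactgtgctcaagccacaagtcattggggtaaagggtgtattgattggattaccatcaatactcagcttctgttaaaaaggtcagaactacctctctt
The paired hexamers lay 119 to 103 bases before the Pklr-202 start and read the same in form on both strands. They occurred in 9 of 21664 such windows of protein-coding genes (0.042%), and in none of the windows of the other 7 genes. The window of the other annotated Pklr start, upstream of this one, had no such pair. The E-box CACGTG (6.28% of all windows) and the HNF1 half-site GTTAAT (6.30%) were in no window of the 8 genes on either strand. Only these exact letters were searched for, so sites that differ by a base would be missed. The GC box GGGCGG (36.4% of windows) was found 3 times each in the windows of Slc2a5 and Pkm and not in the other 6. These letters are a description of the sequence. The counts do not separate the starts of a gene.

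The libraries held 27855849 to 64872451 counts each, the highest total being that of 7c kidney replicate 1. Levels are given as CPM, the reads of a gene relative to the total of its library, after scaling of all 20 libraries together with the TMM method. Summed levels of 5 hepatocyte markers were 82897 to 121859 CPM in livers and at most 266 CPM in kidneys. Summed levels of 5 proximal tubule markers were 7774 to 9308 CPM in kidneys and at most 2.00 CPM in livers, where Slc34a1 and Slc5a12 had 0 counts in all 10 libraries. 7c liver replicate 6 stood apart. Its 5 skeletal muscle markers summed to 735 CPM against at most 0.363 CPM in any other liver, and its 5 leukocyte markers to 293 CPM against at most 143. The part of these markers in the values of that library was not tested. In such bulk tissue, fewer cells of a type and less RNA per cell cannot be told apart.

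The sugar transporters were divided between the organs. Slc2a2 (ENSMUSG00000027690, GRCm39 chr3:28752051-28785508, + strand) was at 371, 340, 367 and 375 CPM in the vehicle livers and at 120, 105, 162 and 120 CPM in the vehicle kidneys. In the 7c mice it ranged from 303 to 501 CPM in livers (median 353) and from 79.2 to 153 CPM in kidneys (median 102). Every liver was above every kidney. The log2 fold change of liver over kidney was 1.51 ± 0.15 (SE) in vehicle mice (edgeR's quasi-likelihood test with Benjamini-Hochberg adjustment, adjusted p = 8.09e-06) and 1.86 ± 0.18 in 7c mice (edgeR, adjusted p = 2.58e-07).

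Slc2a5 (ENSMUSG00000028976, GRCm39 chr4:150196268-150228931, + strand), which carries fructose, had the opposite pattern. It was at 77.2, 75.1, 78.7 and 55.0 CPM in vehicle kidneys and at 12.6, 12.2, 10.97 and 12.5 CPM in vehicle livers. Among 7c mice it ranged from 44.5 to 152 CPM in kidneys (median 92.1) and from 7.87 to 26.6 CPM in livers (median 13.2). No liver reached the lowest kidney. The log2 fold change of liver over kidney was -2.57 ± 0.15 in vehicle mice (edgeR, adjusted p = 9.27e-08), or 5.95-fold higher in kidney, and -2.71 ± 0.35 in 7c mice (edgeR, adjusted p = 4.80e-06). The vehicle livers varied little for this gene, with an SD of 0.748 CPM, while all 6 of the 7c livers fell outside the vehicle range, 3 above and 3 below. A range of 4 libraries is easily left by others, and the difference in spread was not tested.

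Hk1 and Khk phosphorylate the sugars that enter. Hk1 (ENSMUSG00000037012, GRCm39 chr10:62104621-62215687, - strand) was at 2.77, 5.17, 3.10 and 3.55 CPM in vehicle livers (68 to 142 counts) against 81.0, 88.4, 79.6 and 78.8 CPM in vehicle kidneys. The 7c livers ranged from 3.40 to 5.76 CPM (median 4.70) and the 7c kidneys from 86.3 to 107 CPM (median 97.8). The organs did not overlap. Hk1 was 22.5-fold higher in vehicle kidneys (log2 fold change of liver over kidney -4.49 ± 0.21, edgeR, adjusted p = 1.18e-08) and 20.6-fold higher in 7c kidneys (edgeR, adjusted p = 3.16e-13).

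Khk (ENSMUSG00000029162, GRCm39 chr5:31078775-31101479, + strand) was abundant in both organs. Its levels were 543, 549, 656 and 727 CPM in vehicle livers and 637, 1166, 609 and 716 CPM in vehicle kidneys. The 7c livers ranged from 558 to 811 CPM (median 711) and the 7c kidneys from 618 to 1357 CPM (median 841). The organs overlapped in both groups. The log2 fold change of liver over kidney was -0.34 ± 0.22 in vehicle mice (edgeR, adjusted p = 0.207, 95% confidence interval -0.82 to 0.13) and -0.34 ± 0.18 in 7c mice (edgeR, adjusted p = 0.115). In the 7c mice Khk passed the threshold with DESeq2 (adjusted p = 0.0470), without replicate 3 (edgeR, adjusted p = 0.0389) and without replicate 6 (edgeR, adjusted p = 0.0428). Of the sequence of its canonical transcript, 20.7% (as 50-base words) is also found on the opposite strand in transcripts of Cgref1, which was at 163 to 388 CPM in kidneys and at most 1.17 CPM in livers. The strand setting of the counting is not stated in the sources used here.

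Among the genes that act on fructose 6-phosphate, Pfkfb1 (ENSMUSG00000025271, GRCm39 chrX:149371225-149426874, + strand) had the largest organ difference of the 8 genes. It was at 58.2, 35.7, 23.1 and 27.9 CPM in vehicle livers and at 0.790, 1.48, 0.552 and 1.78 CPM in vehicle kidneys, where it had 26 to 66 counts. The 7c livers ranged from 29.3 to 64.3 CPM (median 46.9) and the 7c kidneys from 0.623 to 1.96 CPM (median 0.928). The lowest liver was far above the highest kidney. Pfkfb1 was 31.6-fold higher in vehicle livers (log2 fold change 4.98 ± 0.42, edgeR, adjusted p = 1.73e-06) and 45.4-fold higher in 7c livers (log2 fold change 5.50 ± 0.29, edgeR, adjusted p = 1.20e-10).

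Pfkl (ENSMUSG00000020277, GRCm39 chr10:77818084-77845922, - strand), the liver-type phosphofructokinase, was nearly level between the organs. It was at 57.6, 66.4, 55.2 and 81.9 CPM in vehicle livers and at 58.4, 86.7, 55.9 and 65.6 CPM in vehicle kidneys. The 7c livers ranged from 47.5 to 65.3 CPM (median 59.8) and the 7c kidneys from 58.9 to 111 CPM (median 75.9). The groups overlapped in both treatments. The log2 fold change of liver over kidney was -0.04 ± 0.18 in vehicle mice (edgeR, adjusted p = 0.878, 95% confidence interval -0.43 to 0.36) and -0.42 ± 0.15 in 7c mice (edgeR, adjusted p = 0.0217). The latter call was lost without replicate 4, at an adjusted p of 0.115 (edgeR). The difference between these organ contrasts is the treatment by tissue interaction, which did not pass the threshold for Pfkl (edgeR, adjusted p = 1.000). Cfap410 overlaps Pfkl on the other strand and shares 23.3% of its 50-base words. It was at 4.97 to 8.85 CPM in livers and 18.3 to 31.7 CPM in kidneys.

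The pyruvate kinase genes changed places. Pklr (ENSMUSG00000041237, GRCm39 chr3:89043449-89054619, + strand) was at 233, 154, 199 and 269 CPM in vehicle livers and at 19.2, 17.1, 22.4 and 27.2 CPM in vehicle kidneys. The 7c livers ranged from 176 to 578 CPM (median 242), the highest value being that of replicate 6, and the 7c kidneys from 17.6 to 26.7 CPM (median 21.2). Each liver exceeded each kidney. Pklr was 9.90-fold higher in vehicle livers (log2 fold change 3.31 ± 0.22, edgeR, adjusted p = 1.94e-07) and 12.99-fold higher in 7c livers (log2 fold change 3.70 ± 0.27, edgeR, adjusted p = 5.68e-09). Without the liver and kidney of replicate 6, the latter log2 fold change was 3.43. Hcn3, a channel gene on the opposite strand, shares 35.2% of the 50-base words of Pklr-202, and was at 5.94 to 69.9 CPM in livers and at most 1.81 CPM in kidneys.

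Pkm (ENSMUSG00000032294, GRCm39 chr9:59563364-59586663, + strand) was at 163, 243, 166 and 172 CPM in vehicle kidneys and at 19.8, 25.1, 23.6 and 16.3 CPM in vehicle livers. The 7c kidneys ranged from 171 to 303 CPM (median 237) and the 7c livers from 17.1 to 44.0 CPM (median 23.2), with replicate 6 again the highest liver. No liver overlapped a kidney. Pkm was 8.83-fold higher in vehicle kidneys (log2 fold change of liver over kidney -3.14 ± 0.20, edgeR, adjusted p = 1.32e-07) and 9.26-fold higher in 7c kidneys (log2 fold change -3.21 ± 0.22, edgeR, adjusted p = 3.52e-09), and the latter log2 fold change was -3.49 without the liver and kidney of replicate 6. Of the 50-base words of its canonical transcript, 59.3% recur in transcripts of 10 other genes, processed pseudogenes among them, so that its level is uncertain where reads with several positions were dropped. Of these, Gm6560 reached 3.43 CPM in kidneys. The counts also sum the M1 and M2 splice forms of Pkm, which they cannot separate.

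**Figure D1:**
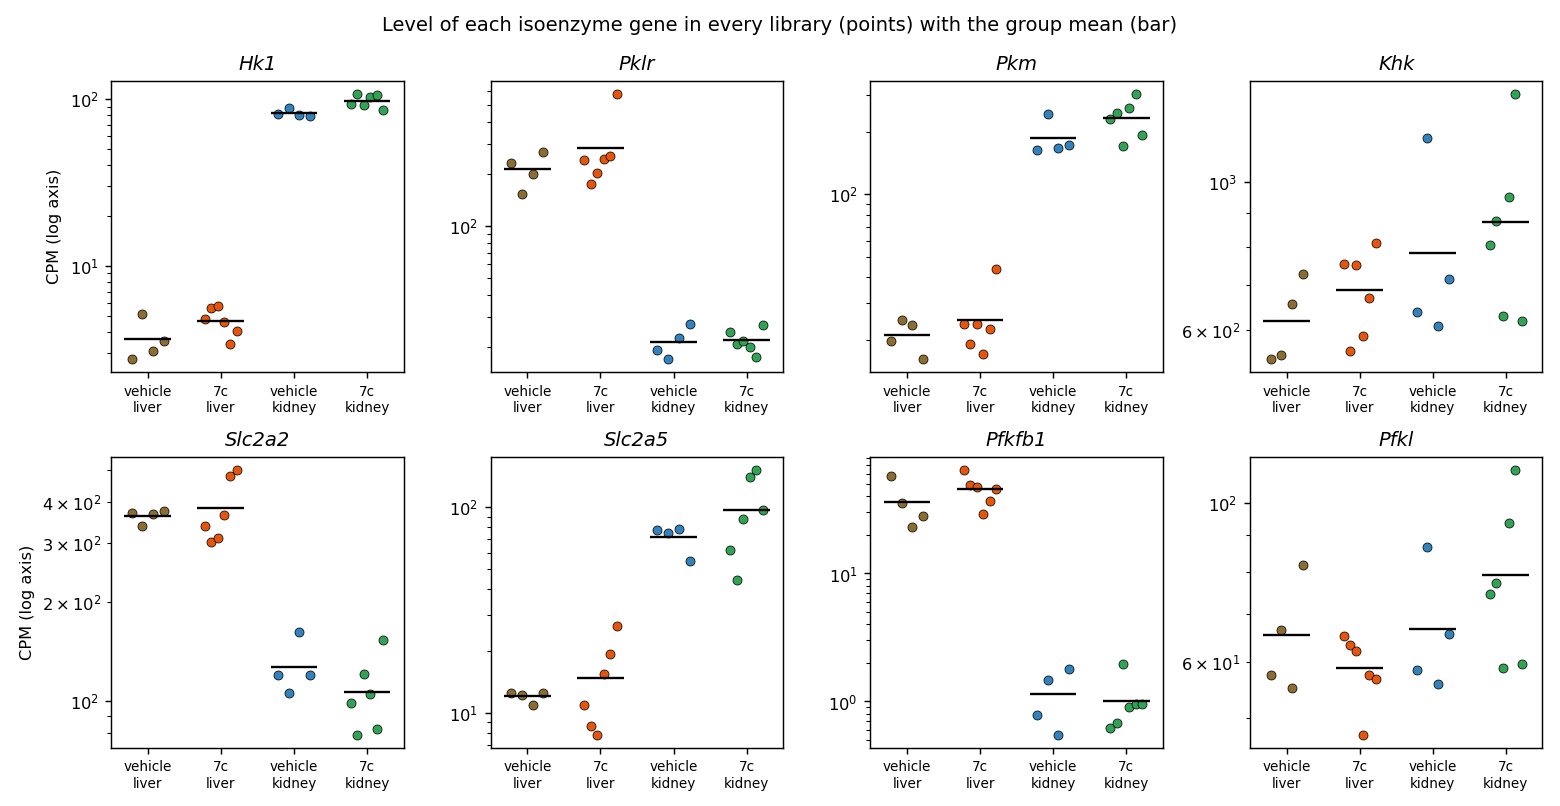
Level of each gene in CPM (vertical log axis, scaled separately in each panel) in the 4 vehicle and 6 7c libraries of liver and kidney. Points are libraries and bars are group means. Hk1, Pkm and Slc2a5 lie higher in all kidneys, Pklr, Slc2a2 and Pfkfb1 higher in all livers, and Khk and Pfkl overlap between the organs.

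In vehicle mice, 3 of the 8 genes were thus higher in liver (Pfkfb1, Pklr and Slc2a2) and 3 higher in kidney (Hk1, Pkm and Slc2a5), while Khk and Pfkl did not pass the test. Over all 19025 genes tested, 24.2% were called higher in liver, 28% higher in kidney, and 52.2% in either direction. In 7c mice, 3 of the 8 genes were higher in liver and 4 in kidney, with Pfkl added to the latter. Of 19028 genes tested in 7c mice, 30.4% were higher in liver, 33.8% higher in kidney and 64.2% in either direction. The median log2 fold change of all genes was -0.11 in both contrasts.

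Levels can be compared between genes only per length, here as CPM per kilobase of the canonical transcript. In vehicle livers, Khk stood first at 373 ± 53.6 (SD, n = 4), followed by Slc2a2 at 65.2 ± 2.87 and Pklr at 62.3 ± 14.4, whose ranges overlapped. Pfkfb1 (19.4 ± 8.30) and Pfkl (15.9 ± 2.95) came next and also overlapped. Pkm (8.66 ± 1.62), Slc2a5 (3.49 ± 0.216) and Hk1 (0.853 ± 0.249) followed, each below the range of the gene before it. In vehicle kidneys, Khk was again first at 471 ± 157 CPM per kilobase, and Pkm second at 76.1 ± 15.5. The place of Pkm depends on the length used, as its canonical transcript has 2448 bases and its exons together have 13417. Slc2a2 (22.8 ± 4.34), Slc2a5 (20.6 ± 3.21), Hk1 (19.1 ± 1.03) and Pfkl (16.3 ± 3.41) each overlapped the next in that order. Pklr (6.26 ± 1.27) and Pfkfb1 (0.615 ± 0.308) were last. The order in 7c livers differed by an exchange of Pklr and Slc2a2, whose ranges overlapped. In 7c kidneys Slc2a2 (19.1 ± 4.93) came after Slc2a5 (28.1 ± 12.2), Hk1 (22.8 ± 1.93) and Pfkl (19.3 ± 4.92), each of these overlapping the next.

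**Figure D2:**
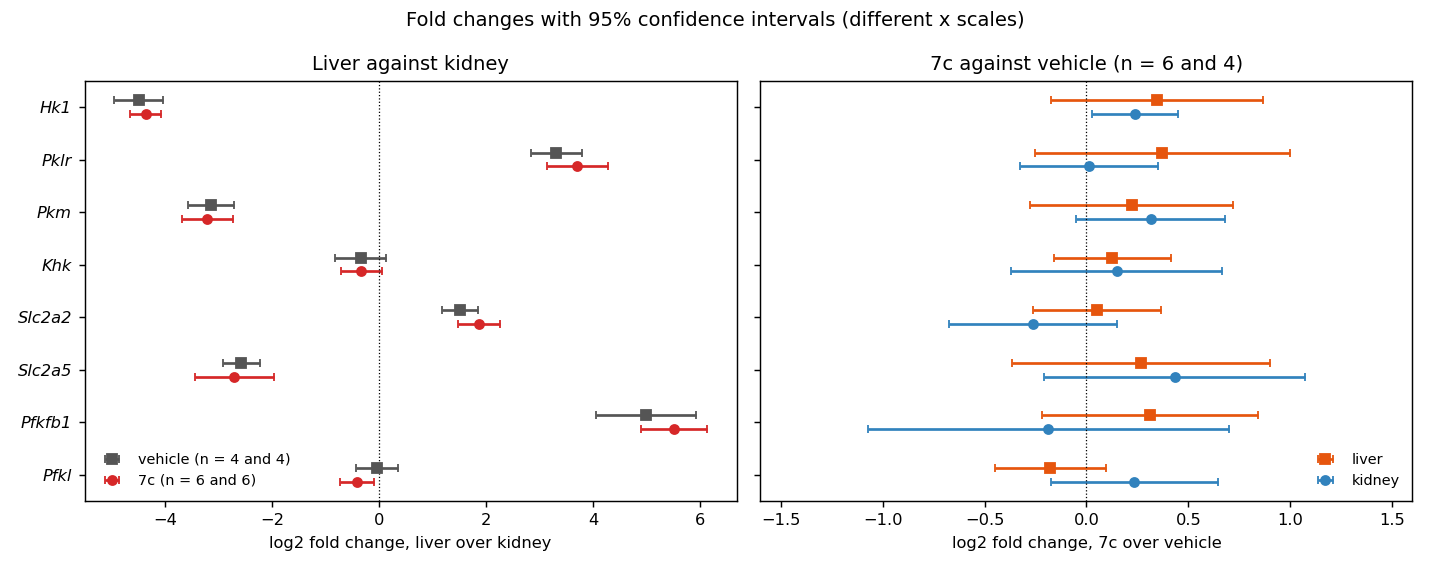
Log2 fold change of each gene with its 95% confidence interval (horizontal axis). The left panel gives liver over kidney in vehicle (squares) and 7c mice (circles), and the right panel, on a narrower scale, gives 7c over vehicle in liver (squares) and kidney (circles). Organ differences reach 5.50, whereas 15 of the 16 intervals for 7c include 0, the exception being Hk1 in kidney.

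Within each enzyme family, the share of each gene was computed per library from CPM per kilobase, as a description. Of the pyruvate kinase transcripts, Pklr made up 87.2% ± 4.68 (SD, n = 4) in vehicle livers and 7.86% ± 2.26 in vehicle kidneys. In 7c mice the Pklr share was 88.5% ± 2.06 (SD, n = 6) in livers and 6.53% ± 1.90 in kidneys. With the length of all exons in place of the canonical transcript, the Pklr share was 29.5% ± 6.82 in vehicle kidneys and 97.1% ± 1.17 in vehicle livers. 7c liver replicate 6, where both genes were high, lay inside the range of the other 7c livers for this share, at 90.4%.

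Other genes of hexose phosphorylation and its control are given by level. Hk3 was at 3.24 ± 1.01 CPM in vehicle livers and 0.424 ± 0.256 CPM in vehicle kidneys (log2 fold change 2.93 ± 0.56, edgeR, adjusted p = 0.0011), and Hkdc1, a hexokinase-like gene, at 0.521 ± 0.351 and 2.52 ± 0.887 CPM (-2.27 ± 0.57, edgeR, adjusted p = 0.00584). Hk2 was at 1.09 ± 0.627 and 0.417 ± 0.277 CPM and did not pass the threshold (edgeR, adjusted p = 0.115). Gckr was at 373 ± 51.0 CPM in vehicle livers and 0.370 ± 0.151 CPM in vehicle kidneys (10 to 28 counts, log2 fold change 9.95 ± 0.29, edgeR, adjusted p = 7.28e-10).

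All 3 phosphofructokinase genes were measured in both organs. Pfkl made up 68.8% ± 2.04 in vehicle livers and 43.5% ± 3.95 in vehicle kidneys. Pfkm, the muscle-type gene, made up 28.1% ± 1.70 and 35.7% ± 0.880, and Pfkp, the platelet-type gene, 3.05% ± 1.12 and 20.9% ± 4.46. Although Pfkl itself was level between the organs, Pfkm and Pfkp were 2.06-fold and 11.1-fold higher in vehicle kidneys (edgeR, adjusted p = 9.93e-05 and 3.27e-07). The lowest liver share of Pfkl, 48.8%, was in a 7c liver where Pfkm was at 55.6 CPM, replicate 6, against 21.3 to 29.7 CPM in the other 7c livers.

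Of the Pfkfb transcripts, Pfkfb1 made up 79.2% ± 5.10 in vehicle livers and 8.99% ± 4.30 in vehicle kidneys, where it was 5.60% with the length of all exons and 4.60% without division by length. Pfkfb4 led in kidneys at 52.5% ± 1.87 and made up 2.03% ± 0.729 in livers. It was 8.29-fold higher in vehicle kidneys (edgeR, adjusted p = 9.35e-07). Pfkfb2 was 2.11-fold higher in vehicle livers (edgeR, adjusted p = 0.00194), at 8.40 ± 1.24 CPM against 3.95 ± 0.694 CPM. Pfkfb3 did not differ past the threshold in vehicle mice (log2 fold change 0.25 ± 0.43, edgeR, adjusted p = 0.657) and ranged from 4.20 to 34.5 CPM among 7c livers.

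Among Slc2a1 to Slc2a5, Slc2a2 made up 91.1% ± 0.909 in vehicle livers. In vehicle kidneys Slc2a2 and Slc2a5 had similar shares, 39.0% ± 3.97 and 35.5% ± 4.35, and Slc2a1 followed Slc2a4 at 11.1% ± 1.09. In 7c kidneys the share of Slc2a5 ranged from 28.1% to 59.9%. Slc2a1, the general glucose transporter, was 2.35-fold higher in vehicle kidneys (edgeR, adjusted p = 0.000106), and Slc2a3 was at 0.583 ± 0.478 and 0.938 ± 0.312 CPM in vehicle livers and kidneys. Slc2a9, a urate and hexose transporter outside these shares, was 5.18-fold higher in vehicle livers (edgeR, adjusted p = 5.72e-06). Slc2a4, the insulin-responsive transporter of muscle and fat, had 0 to 6 counts in vehicle livers and 8.66 CPM in 7c liver replicate 6.

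Tkfc, which acts after Khk in the fructose path, was at 389 ± 24.0 CPM in vehicle livers and 352 ± 56.8 CPM in vehicle kidneys (log2 fold change 0.14 ± 0.15, edgeR, adjusted p = 0.458).

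**Figure D3:**
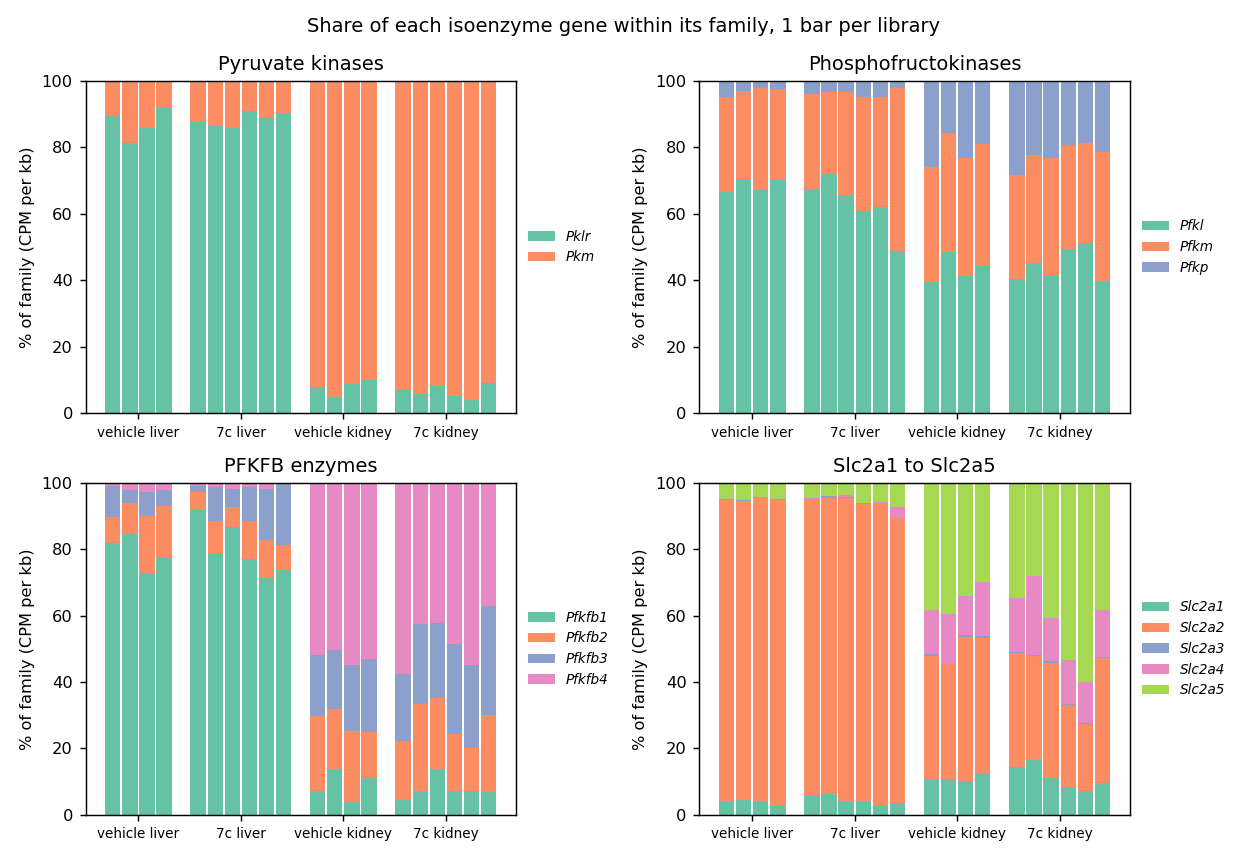
Share of each gene within its family in percent of CPM per kilobase (vertical axis), 1 stacked bar per library, grouped as vehicle and 7c livers and kidneys (n = 4, 6, 4 and 6). The leading pyruvate kinase and Pfkfb genes change between the organs, while Pfkl, Pfkm and Pfkp are mixed in both and Slc2a2 leads the transporters in livers.

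Of 63 further genes of sugar transport and glycolysis, 14 were higher in liver (22.2%) and 28 higher in kidney (44.4%) in vehicle mice, against 24.2% and 28% of all genes tested, and their median log2 fold change was -0.29 against -0.11 for all genes. Of 14 sugar transporters, 1 was higher in liver, Slc2a9, and 9 in kidney (64.3%). The sodium-glucose transporters Slc5a2 and Slc5a10 were at 402 ± 69.1 and 170 ± 53.2 CPM in vehicle kidneys, with 0 counts of the former and at most 2 of the latter in any vehicle liver. Of 9 genes of the preparatory steps, 2 were higher in liver, Tigar (1.22 ± 0.22) and Pfkfb2, and 5 in kidney, led by Fbp2 (-6.28 ± 0.75), a muscle-type fructose bisphosphatase with 0 to 20 counts in vehicle livers, and Pfkp.

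Of 13 genes of the aldolases and lower glycolysis, 2 were higher in liver, Aldoc (log2 fold change 1.61 ± 0.24) and Ldha (0.50 ± 0.12), and 8 in kidney. Ldhb, the lactate dehydrogenase subunit of oxidative tissue, was at 1487 ± 528 CPM in vehicle kidneys and 3.47 ± 0.578 CPM in vehicle livers, and Pgam2 at 42.6 ± 22.3 and 0.704 ± 0.598 CPM. Of 5 genes of the fructose and polyol path, 1 was higher in liver, Glyctk (0.44 ± 0.12), and 1 in kidney, the aldose reductase gene Akr1b1 (-2.44 ± 0.20). Of 10 regulators, 2 were higher in liver, Srebf1 (3.20 ± 0.24) and Mlxipl, and 2 in kidney, Txnip (-1.30 ± 0.21) and Mlxip (-0.80 ± 0.24). Mlxipl, which encodes the carbohydrate response factor ChREBP, was at 463 ± 91.1 CPM in vehicle livers and 212 ± 14.9 CPM in vehicle kidneys (edgeR, adjusted p = 0.00014). Of 7 genes of pyruvate and lactate handling, 3 were higher in liver, led by the pyruvate dehydrogenase kinases Pdk1 (2.74 ± 0.24) and Pdk4 (1.90 ± 0.36), and 2 in kidney, Pdk2 (-1.04 ± 0.16) and Slc16a7 (-0.43 ± 0.16).

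The study asked what 7c does in each organ. None of the 8 genes passed the threshold in liver or in kidney. In liver, 1 of 15012 genes tested was called (0.00666%), Zfp949 (log2 fold change -1.29, edgeR, adjusted p = 0.00591), a zinc finger gene named here after its value was seen because it was the only one, and in kidney 0 of 17749 (0%). An unadjusted p under 0.05 was held by 0 of the 8 genes in liver and 1 in kidney, against 565 genes (3.76%) and 463 genes (2.61%) over all tested. In kidney this count was 1801 of 17514 genes without vehicle replicate 2 and 769 of 17518 without 7c replicate 3. DESeq2, limma-voom and edgeR's likelihood ratio test also called 0 of the 8 genes in either organ. The log2 fold changes of 7c over vehicle ranged from -0.18 to 0.37 in liver (median 0.25) and from -0.26 to 0.43 in kidney (median 0.19), beside medians of 0.00 and -0.01 over all genes.

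In liver, the largest fold change was that of Pklr, 0.37 ± 0.29 (edgeR, adjusted p = 1.000, 95% confidence interval -0.25 to 1.00). Of the 7c livers, 5 of 6 lay within the vehicle range of Pklr, and 2 of 6 without vehicle replicate 4. Without 7c replicate 6 its log2 fold change was 0.04, that of Pkm went from 0.22 to -0.01, that of Slc2a5 from 0.27 to 0.02 and that of Slc2a2 from 0.05 to -0.04. Hk1 differed by 0.35 ± 0.24, with 2 of 6 7c livers above the vehicle range, and by 0.54 with 5 of 6 above it without vehicle replicate 2. Pfkfb1 differed by 0.31 ± 0.25 and Khk by 0.13 ± 0.13, with 1 and 3 of 6 above the range. Without vehicle replicate 1, at 58.2 CPM, Pfkfb1 differed by 0.64 with 5 of 6 above the range, and without vehicle replicate 3 by 0.16 with 1 of 6 above it. Pfkl was the 1 gene with a negative difference, -0.18 ± 0.13, and 5 of 6 7c livers lay within its vehicle range, or 3 of 6 without vehicle replicate 3. With any 1 library left out, the Pfkl difference ranged from -0.24, without vehicle replicate 3, to -0.04, without vehicle replicate 4. The Khk difference ranged from 0.06 without vehicle replicate 2 to 0.22 without vehicle replicate 4.

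In kidney, Hk1 was at 78.8 to 88.4 CPM in vehicle mice and above that range in 5 of 6 7c mice. Its log2 fold change was 0.24 ± 0.10, or 1.18-fold with a 95% confidence interval of 1.02 to 1.36, with an unadjusted p of 0.0292 and an adjusted p of 0.997 (edgeR). Slc2a5 had the largest difference, 0.43 ± 0.30 (95% confidence interval -0.21 to 1.07), with 4 of 6 7c kidneys above the vehicle range and 1 below it. The summed level of 5 fat cell markers was 40.6 to 109 CPM in 7c kidneys and 27.7 to 39.8 CPM in vehicle kidneys. These markers include Cidec, which the study called higher in 7c kidneys by its own fit. The sum was therefore not chosen blind to this difference. Among 7c kidneys, replicates 4 and 5 were the highest for both Slc2a5 (141 and 152 CPM) and these markers (91.7 and 109 CPM), and replicate 2 was the lowest for both. The part of the markers in the result was not tested. Pkm differed by 0.32 ± 0.17, with 3 of 6 above the range. Slc2a2 differed by -0.26 ± 0.19, with 4 of 6 below the range and none above. Without vehicle replicate 3 it differed by -0.12, with 2 above the range, and without 7c replicate 6 by -0.40. Pklr (0.01 ± 0.16), Pfkl (0.24 ± 0.19) and Khk (0.15 ± 0.24) had 6, 4 and 5 of 6 7c kidneys within the vehicle range. Single libraries moved several of these values, and the sign of some. Khk differed by 0.40 without vehicle replicate 2, with 4 of 6 7c kidneys above the range of the others, and by -0.02 without 7c replicate 5. Without vehicle replicate 2, Pfkl differed by 0.39 and Pkm by 0.47, with 4 and 5 of 6 7c kidneys above the range of the other vehicle kidneys, and without 7c replicate 5 Pfkl differed by 0.11 and Slc2a5 by 0.26. Pfkfb1 differed by -0.19 ± 0.41, with the largest standard error of the 8 genes at 26 to 92 counts per kidney, and ranged from -0.49 without 7c replicate 3 to 0.10 without vehicle replicate 4.

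The treatment by tissue interaction, which is the liver effect of 7c minus the kidney effect, passed the threshold for none of the 8 genes. Over all genes 1 of 14163 was called (0.00706%), the carboxylesterase gene Ces1c (2.54, edgeR, adjusted p = 0.00947), named for the same reason as Zfp949. An unadjusted p under 0.05 was held by 0 of the 8 and by 353 of all genes, and DESeq2, limma-voom and the likelihood ratio test called 0 of the 8. The interaction ranged from -0.42 ± 0.25 for Pfkl to 0.49 ± 0.47 for Pfkfb1. With a replicate left out, that of Pfkl ranged from -0.55 to -0.28 and that of Pfkfb1 from 0.12 without vehicle replicate 4 to 0.96 without vehicle replicate 1. Of the 63 further genes, 53 were tested in liver, 62 in kidney and 52 in the interaction, with 0 called in each (edgeR). An unadjusted p under 0.05 was held by 0, 0 and 1 of them, the 1 being Gckr in the interaction (1.25, unadjusted p = 0.00951, adjusted p = 1.000, edgeR), which had at most 28 counts per kidney.

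The levels of the 8 genes were also compared with each other across the 10 libraries of each organ. Of 56 pairs, 10 had a Pearson correlation of log2 CPM past an adjusted p of 0.05 by permutation. In livers these were 3 pairs among Pklr, Slc2a2 and Slc2a5. Slc2a2 and Slc2a5 had r = 0.94 (permutation p = 0.00014, adjusted p = 0.00261) and Spearman's rho = 0.88 (permutation p = 0.00174, adjusted p = 0.0325). Without the 2 livers farthest from the median of Slc2a2, 7c replicates 5 and 6, r was 0.83, and within the 7c livers it was 0.96. These 2 livers also had the highest red cell marker sums, 1597 and 1118 CPM against at most 938 in the other 8, and the highest hepatocyte marker sums, 112211 and 121859 CPM against at most 104692. The part of this in the liver correlations was not tested. The vehicle group, at 4 libraries, was too small for a value of its own. Of 15010 other genes tested in liver, 4 had a correlation with Slc2a2 at least as far from 0.

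Pklr rose with Slc2a2 across livers at r = 0.78 (permutation p = 0.00349, adjusted p = 0.0326) and rho = 0.75 (permutation p = 0.0184, adjusted p = 0.0935), and with Slc2a5 at r = 0.79 (permutation p = 0.00759, adjusted p = 0.0474) and rho = 0.70 (permutation p = 0.0307, adjusted p = 0.132). The rank correlations thus did not pass after adjustment. Without 7c replicate 6 and vehicle replicate 2, the farthest livers for Pklr, r was 0.68 and 0.75, and within 7c livers it was 0.81 and 0.86. Correlations with Pklr as far from 0 were held by 247 and 203 of the 15010 genes. The window of Slc2a2 printed above holds no such pair of hexamers.

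In kidneys, Khk, Pkm and Pfkl rose and fell together. Khk and Pfkl had r = 0.97 (permutation p = 4.00e-05, adjusted p = 0.00196) and rho = 0.94 (permutation p = 0.00024, adjusted p = 0.00672). Pkm and Pfkl had r = 0.96 (permutation p = 7.00e-05, adjusted p = 0.00196) and rho = 0.96 (permutation p = 6.00e-05, adjusted p = 0.00336), and Pkm and Khk r = 0.91 (permutation p = 0.00036, adjusted p = 0.00504) and rho = 0.84 (permutation p = 0.00336, adjusted p = 0.0376). Without the 2 farthest kidneys the 3 values of r were 0.98, 0.93 and 0.86, and within 7c kidneys 0.98, 0.97 and 0.96. Of 17747 other genes, 376 (2.12%) correlated with Khk as far from 0 as Pfkl did, and 1950 (10.99%) as far as Pkm did. With Pfkl, 125 genes (0.704%) correlated as far from 0 as Khk did and 283 (1.595%) as far as Pkm did, and with Pkm, 105 genes (0.592%) as far as Pfkl did and 848 (4.78%) as far as Khk did. Vehicle replicate 2 and 7c replicate 5 held the highest Khk, at 1166 and 1357 CPM. Their 5 red cell markers summed to 1053 and 1808 CPM against 246 to 748 CPM in 7 of the other 8 kidneys and 1800 CPM in 7c replicate 1, where Khk was at 806 CPM. The TMM scaling factors of vehicle replicate 2 and 7c replicate 5 were also the lowest, at 1.13 and 1.16 against 1.22 to 1.32 in the other 8. The part of these in the kidney correlations was not tested.

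Slc2a2 ran against this group in kidneys. With Khk it passed by rank (rho = -0.85, permutation p = 0.00298, adjusted p = 0.0376) and not by Pearson (r = -0.76, permutation p = 0.0103, adjusted p = 0.0522). Its correlation was -0.78 with Pkm (permutation p = 0.00847, adjusted p = 0.0474), -0.78 with Pfkl (permutation p = 0.00823, adjusted p = 0.0474) and -0.81 with Hk1 (permutation p = 0.00513, adjusted p = 0.0410), with rho of -0.79, -0.82 and -0.79 (permutation p = 0.00847, 0.00596 and 0.00891, adjusted p = 0.0562, 0.0556 and 0.0562). Without the 2 farthest kidneys r was -0.75, -0.84 and -0.60, and within 7c kidneys -0.76, -0.73 and -0.91. Hk1 and Pkm had r = 0.85 (permutation p = 0.00295, adjusted p = 0.0326) and rho = 0.79 (permutation p = 0.00903, adjusted p = 0.0562), with 0.80 without the 2 farthest kidneys and 0.82 within 7c kidneys. Correlations as far from 0 as that of Slc2a2 were held with Pkm by 4505 of 17747 genes (25.4%), with Pfkl by 4965 (27.98%) and with Hk1 by 249 (1.40%). Seen from Slc2a2, 982 genes (5.53%) were as far from 0 as Pkm, 974 (5.49%) as far as Pfkl and 557 (3.14%) as far as Hk1. For Hk1 and Pkm, 87 genes (0.490%) were as far from 0 with Hk1 and 2470 (13.9%) with Pkm.

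**Figure D4:**
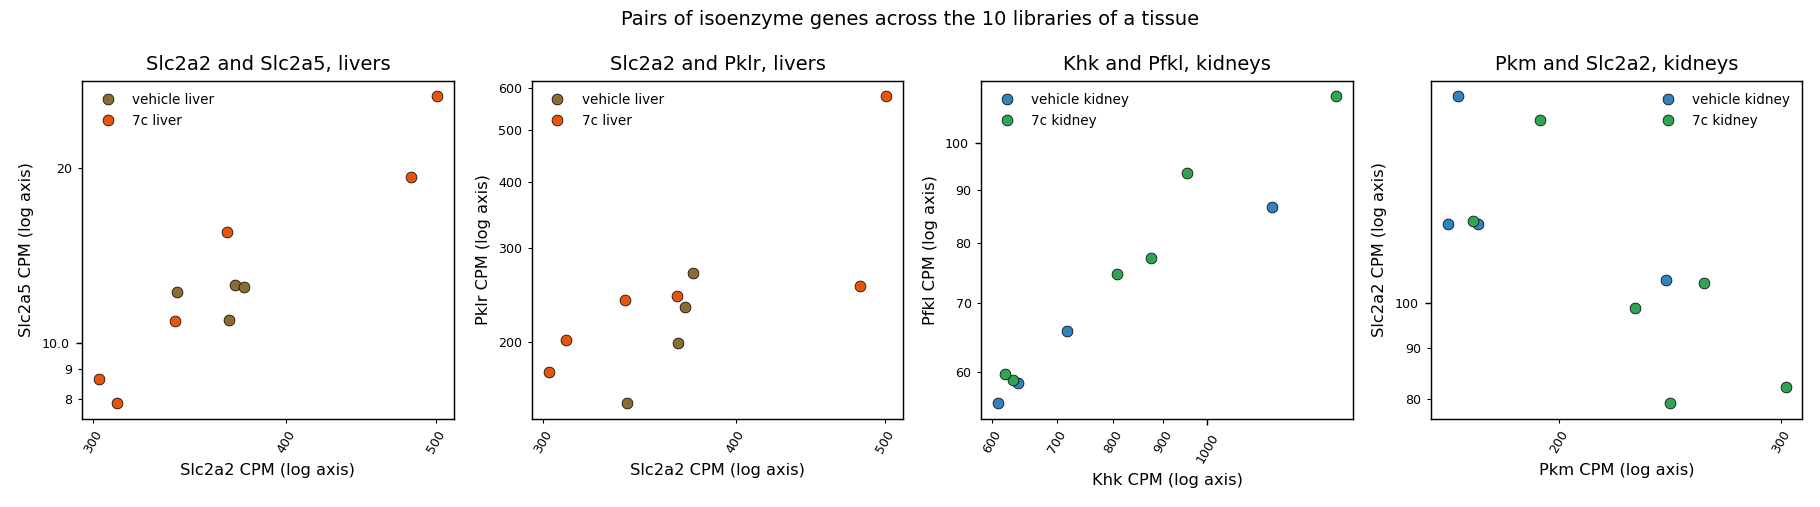
Levels of 2 genes against each other in CPM (both axes logarithmic), 1 point per library, with vehicle and 7c mice in different colours. Slc2a2 rises with Slc2a5 and with Pklr across 10 livers, Khk with Pfkl across 10 kidneys, and Slc2a2 falls as Pkm rises across 10 kidneys.

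For each gene, up to 3 genes with the most similar levels over the 10 libraries of its higher organ are given as a description by Pearson's r. For Pklr in livers they were Tkfc (0.95), the overlapping Hcn3 (0.95) and Pfkm (0.93). Without 7c liver replicate 6, where Pklr and Pfkm had their highest liver values, r was 0.81, 0.79 and 0.69. For Slc2a2 in livers they were Mlycd (0.96), Per3 (0.94) and Slc2a5 (0.94), with 0.94, 0.90 and 0.90 without that library. Pfkfb1 in livers was most like Bhmt-ps1 (0.98), 9330162G02Rik (0.93) and Gm14719 (0.92). In kidneys, Hk1 was most like Maged1 (0.94), Lmod1 (0.94) and Bcl2l1 (0.93), and Slc2a5 like Tceanc2 (0.93) and Kctd8 (0.91). Khk was followed by Vamp8, Elof1 and Dnlz (0.99 each), Pkm by Pld3, Tssc4 and Septin9 (0.98 each), and Pfkl by Polr1h (0.99), N4bp3 (0.99) and Tmem234 (0.99).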

How the data were processed

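RNA of livers and kidneys was sequenced as stranded libraries of polyadenylated RNA. The authors aligned reads to GRCm39 with STAR 2.7.11b and counted them with featureCounts 2.0.6, and deposited them as unnormalized counts for 57010 genes. The annotation release, the strand setting and the treatment of reads with several positions are not given in the sources used here. Of the counts from 1 to 20, 75.1% to 83.2% per library were even, and whether mates were counted separately is not stated.

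Symbols, positions and transcripts came from GENCODE vM39, which matched 56310 genes. Genes were tested with edgeR 4.0.16 (R 4.3.3), with TMM scaling, the quasi-likelihood test, Benjamini-Hochberg adjustment over all genes tested and a threshold of 0.05. The filter was at least 10 counts in 50% of the libraries of a tissue among those compared. Organ contrasts took genes that passed in either tissue, and the interaction took genes that passed in both. Intervals of fold changes are 95% intervals from the same fit. The difference of 7c effects (liver minus kidney) was tested as an interaction. Organ contrasts and the interaction took livers and kidneys as independent, since the labels do not say which come from the same mouse. Correlations were taken on log2 CPM (prior count 2) with 100000 permutations, two-sided, adjusted over 56 pairs. Libraries of a group were never alike within sampling noise (lowest chi-square per gene 19.7 over 42 pairs). Fits were also run on simulated data, and the outcome is not given here. The same contrasts were rerun with the likelihood ratio test, DESeq2 1.42.0 and voom in limma 3.58.1, with RLE scaling, with no filter, with all libraries in 1 fit, with the replicate number as a block and without each replicate in turn. Shares by the length of all exons, similar genes without 7c liver replicate 6, and ranges without a vehicle library were added after seeing the data.

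The 8 genes, the pathway lists and the markers were chosen with earlier results of these data known. Named in the text are the 8 genes, their family partners, any listed gene past the threshold for 7c, the listed genes with the 2 largest organ differences in each direction, and the 3 genes most similar to each of the 8. Results of some genes that this rule would name are not reported here.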

Additional observations from a re-analysis of the deposited data

Results flagged for a closer look

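In 5 of the 32 groups of 4 or 6 libraries, 1 library lay farther from the others than Dixon's 95% critical value allows, and chance flags about 1 group in 20. The same rule marked 5.39% of all genes tested in vehicle livers, 6.73% in 7c livers, 9.78% in vehicle kidneys and 6.94% in 7c kidneys, against 0, 2, 2 and 1 of the 8 genes. Of the 5, 2 came from 7c liver replicate 6. Pklr was at 578 CPM in 7c liver replicate 6 against 176 to 255 CPM in the other 7c livers, and Pkm at 43.99 CPM there against 17.1 to 24.0 CPM. That liver also held the raised muscle and leukocyte markers described above, whose part in these values was not tested. Pkm was at 243 CPM in vehicle kidney replicate 2 against 163 to 172 CPM in the other vehicle kidneys. Slc2a5 was at 55 CPM in vehicle kidney replicate 4 against 75.1 to 78.7 CPM. Pfkfb1 was at 1.964 CPM in 7c kidney replicate 3 against 0.623 to 0.954 CPM.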

How the results depend on the processing

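None of the 8 genes passed the threshold for 7c or the interaction under any alternative (adjusted p 0.6435 to 1 in liver, 0.476 to 1 in kidney and 0.7773 to 1 for the interaction). Over all genes the calls varied. In liver they went from 1 to 6 with DESeq2, 7 with the likelihood ratio test, 4 with no filter, 4 with all libraries in 1 fit and 0 to 2 with a replicate left out. In kidney they went from 0 to 18 with DESeq2, 2 with limma-voom, 14 with the likelihood ratio test, 3 with no filter, 18 with all libraries in 1 fit and 0 to 3 with a replicate left out. For the interaction they went from 1 to 16 with DESeq2, 0 with limma-voom, 22 with the likelihood ratio test, 11 with no filter and 0 to 6 with a replicate left out. The cause was not tested.

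With the replicate number as a block, the calls were 0 in liver and 0 for the interaction, and the log2 fold change in liver became -0.0305 for Pkm, -0.1668 for Slc2a2 and -0.2377 for Slc2a5. The labels do not say that a number marks a shared mouse or day. Liver and kidney of 1 number correlated at 0.0130 to 0.259 in their deviations from the group means, under 0.1 for 3 of 10 numbers, and 8 of 10 correlated best with their own number. 7c and vehicle libraries of 1 number, which the block pairs within an organ, correlated at -0.0436 to 0.0324 in liver and -0.0284 to 0.221 in kidney.

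With a replicate left out, the log2 fold change of 7c changed sign in liver for Slc2a2 (-0.0372 to 0.1128) and Pkm (-0.01215 to 0.3111), and in kidney for Pklr (-0.07862 to 0.1452), Khk (-0.02385 to 0.4048) and Pfkfb1 (-0.4899 to 0.1005). So did the interaction for Hk1 (-0.004878 to 0.282), Pkm (-0.39 to 0.02003) and Khk (-0.3264 to 0.1522), and the vehicle organ difference of Pfkl (-0.1688 to 0.0347). Of all log2 fold changes recomputed, 566 kept their sign and side of the threshold, 22 changed sign, 3 gained a call and 1 lost it. The shares depend on the length used. Without division by length, Slc2a2 made up 50.7% and Slc2a5 28.8% in vehicle kidneys. Depth limits Hk1 in liver and Pfkfb1 in kidney, at 68 to 142 and 26 to 92 counts.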
